A study of Canis lupus familiaris with 2 samples.

Results

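The genes described here are 88 genes, read by 115 probe sets, whose signal was at least 3-fold higher in cardiac fat pad tissue of dogs given a miR-206 lentivirus than in that of dogs given a control lentivirus. They were chosen by the measured values themselves, from 823 genes with a single symbol and 1628 probe sets in the deposited table. A probe set is the group of short oligonucleotides that reads a transcript on an Affymetrix array. The rule asked for a log2 intensity of at least 6 on the lenti-control array and a value at least about 3-fold higher on the lenti-miR-206 array. It then set aside, by the first letters of their symbols, gene families such as myosins, troponins, actins, respiratory chain subunits, solute carriers and mitochondrial ribosomal proteins, together with single heart genes such as RYR2, NPPB and DES. Since the same difference chose the genes, their increase is a description and carries no test.

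Both samples came from the left superior fat pads, small islands of fat on the left atrium in which the ganglia of the intrinsic cardiac nervous system lie. In the lenti-control group mongrel dogs received a lentivirus with a scrambled sequence, and in the lenti-miR-206 group a lentivirus that overexpresses miR-206, each by injection into the fat pad after the chest was opened. The study's methods describe groups of these names as not paced, and the labels of these samples mention no atrial pacing, which other groups of the study received. Equal amounts of RNA from 3 dogs were mixed per group and the mix was read on 1 array. The spread between dogs is therefore unknown and no p-value is given. The study's methods describe such mixing for its small RNA sequencing. The sample descriptions also mention a small RNA library, although the arrays read messenger RNA. The label of the lenti-miR-206 sample gives 2 weeks of infection, and the study's methods give the same for its control. The sources used here do not give the promoter that drives the microRNA or the cells that took up the virus. The comparison asks which transcripts differ in this tissue when miR-206 is overexpressed.

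MicroRNAs pair with messenger RNAs through a short seed sequence and mostly lower the transcripts they pair with. miR-206 belongs to a family that is known from striated muscle. Atrial muscle lies directly under the fat pads, and its cells hold sarcomeres, a calcium store called the sarcoplasmic reticulum, dense mitochondria and junctions that bind cell to cell. The genes below are ordered by these compartments, with roles assigned after their values were seen.

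The table holds only probe sets that differ by at least 2-fold between the arrays, so genes with smaller differences are not analysed here. Control probe sets of the array moved too. The 5 probe sets for GAPDH were higher by 1.16 to 1.43 on the log2 scale, and 13 probe sets for bacterial spike-in transcripts were lower, with a median log2 difference of -1.08. Relative to the GAPDH median of 1.31, the differences of the 88 genes, with their chosen probe sets, ran from 0.28 to 1.36. Of these genes, 9 were still at least 2-fold higher. That all lay above GAPDH follows from the fold threshold of the rule. With the brightest of all their probe sets, S100A1, DST and RAB12 had 1.02, 1.12 and 1.16, each under the GAPDH median.

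Of all 1628 probe sets, 224, or 13.8%, passed both thresholds. Among them 160 had a single symbol, of which 45 belonged to the families set aside, and 64 had no symbol or several. The 115 that remained had lenti-control values from 6.01 to 11.35 and lenti-miR-206 values from 7.67 to 13.09, and their differences ran from 3.01-fold to 6.35-fold. With 1 probe set for each gene, that of the highest mean among those chosen, the median log2 difference was 1.82, or 3.54-fold, and 20 genes were at least 4-fold higher. The 36 genes of the families set aside covered about the same range, from 1.59 to 2.89 with a median of 1.75.

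**Figure D1:**
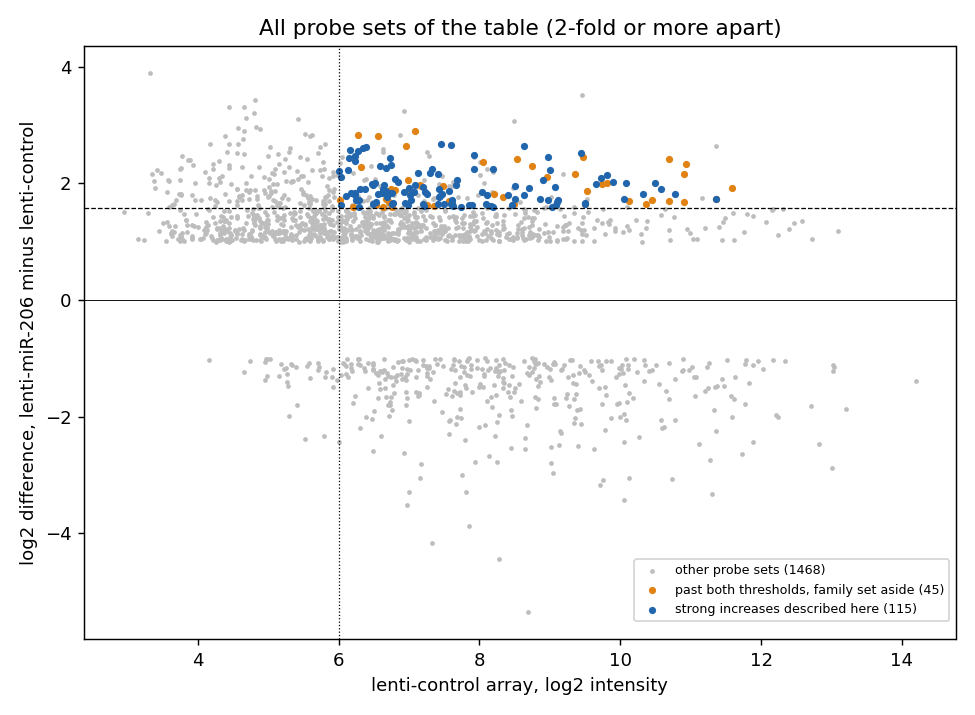
All 1628 probe sets by their log2 intensity on the lenti-control array (x axis) and the log2 difference to the lenti-miR-206 array (y axis, positive where that array was higher). Blue points are the 115 probe sets described, orange points the 45 in families set aside and grey points all others, the dashed and dotted lines are the thresholds of the rule, and no point lies between -1 and 1, the limits of the deposited table.

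The thresholds cut through a continuous range. Just inside the fold threshold lay probe sets of SLMAP, AP2B1, RRAS2 and COMMD3, with log2 differences of 1.59, 1.59, 1.60 and 1.60. Just outside it lay LACTB2, ZC3HC1, LAPTM4B and a further probe set of PAM, with 1.58, 1.58, 1.57 and 1.57. The values of LACTB2 were 7.13 and 8.71, those of ZC3HC1 6.42 and 8.00, those of LAPTM4B 6.67 and 8.24 and those of PAM 12.17 and 13.73 on the lenti-control and the lenti-miR-206 array. At the lenti-control threshold, probe sets of TTN, PLAAT1, UNC45B and TCP11L2 were kept with 6.01, 6.04, 6.04 and 6.10. STIP1, ARL9, LRRC39 and IMMP1L were left out with 5.93, 5.91, 5.91 and 5.90, although their differences were 1.77, 1.85, 2.19 and 1.60. In all, 75 further genes passed the fold threshold only with probe sets under the lenti-control threshold.

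The genes with the largest differences came from several compartments. APOBEC2, a protein related to cytidine deaminases that is known from heart and skeletal muscle, had the largest difference, with a log2 intensity of 7.45 on the lenti-control array and 10.12 on the lenti-miR-206 array, or 6.35-fold. Its second probe set, with 6.75 and 8.58, was 3.55-fold higher. TECRL, a protein of the endoplasmic reticulum linked to inherited arrhythmia, followed with 7.59 and 10.25, or 6.31-fold. SMPX, a small protein of striated muscle, had 8.63 and 11.27, or 6.20-fold. ANK1, whose short muscle form ties the sarcoplasmic reticulum to the sarcomere, had 6.34 and 8.95, or 6.09-fold. In the RefSeq annotation the gene ANK1 also holds the microRNA gene MIR486, which was not measured here. HRC, a calcium-binding protein inside the sarcoplasmic reticulum, had 6.16 and 8.72, or 5.92-fold.

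**Figure D2:**
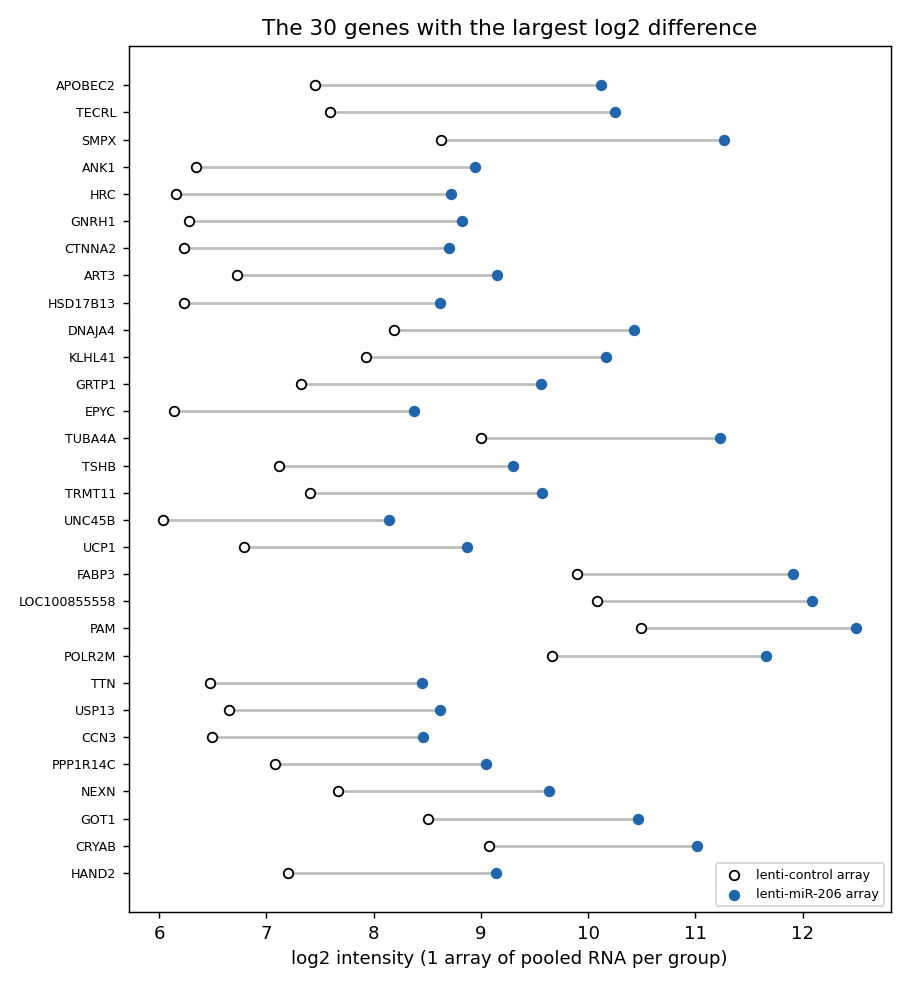
Log2 intensity (x axis) on the lenti-control array (open circles) and on the lenti-miR-206 array (blue circles) for the 30 genes with the largest log2 difference among the 88, ordered by it (y axis), with 1 probe set for each gene and 1 array for each group. The grey line is the difference, from 2.67 for APOBEC2 to 1.94 for HAND2, and levels should be compared between arrays and not between genes.

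Although the rule set aside the main contractile families, 14 of the 88 genes encode proteins of the sarcomere, the Z-disc or the cytoskeleton, with a median log2 difference of 1.81. The genes are therefore not free of contractile genes, because the families were removed by symbol and not by function. Titin (TTN), the giant spring of the sarcomere, had a chosen probe set with 6.47 and 8.45, or 3.95-fold, and another with 2.21 as its log2 difference. NEXN, an actin-binding protein of the Z-disc, was read by 3 chosen probe sets, of which the brightest had 7.67 and 9.64, or 3.90-fold, and the others were 4.52-fold and 4.98-fold higher. CSRP3, the muscle LIM protein, had 10.58 and 12.48, or 3.74-fold. FHL2, another LIM protein of heart muscle, had 8.41 and 10.21, and NRAP, which acts where new myofibrils form, had 7.47 and 9.28. They were 3.49-fold and 3.51-fold higher.

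Further Z-disc genes lay nearer to the threshold. MYPN, or myopalladin, had 7.19 and 8.84, or 3.12-fold. PDLIM5, a scaffold for kinases at the Z-disc, was 3.11-fold higher with its brighter probe set (9.50 and 11.14) but 5.61-fold with the dimmer one (7.92 and 10.41). CMYA5, or myospryn, had 9.11 and 10.82, and MLIP, a muscle protein that binds lamin, had 8.10 and 9.91. Among proteins of actin filaments and microtubules, TUBA4A, an alpha-tubulin, had the largest fold, 4.70, with 9.0 and 11.23. CAP2, which binds actin monomers, had a log2 difference of 1.78, DST, a linker between cytoskeletal filaments, 1.83, and MAP7D1, a microtubule protein, 1.64.

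The sarcoplasmic reticulum and the control of excitation gave 9 genes with a median log2 difference of 1.79. Besides HRC and ANK1 they included PLN, or phospholamban, the brake on the calcium pump of the sarcoplasmic reticulum. Its brighter probe set had 10.77 and 12.59, or 3.52-fold, and the other chosen probe set had 8.97 and 11.42, or 5.45-fold. TRDN, or triadin, which anchors the calcium release complex, had 8.70 and 10.62 with the brightest of 3 chosen probe sets, and their log2 differences were 1.92, 2.06 and 1.91. S100A1, a calcium sensor of heart muscle, had 6.95 and 8.61, or 3.17-fold. DHRS7C, an enzyme of the sarcoplasmic reticulum, was 3.27-fold higher, with 7.61 and 9.32. RRAD, a small GTPase that restrains the L-type calcium channel, was 3.17-fold higher, with 7.61 and 9.28. BVES, a membrane protein that binds cyclic AMP, had 6.23 and 8.03, or 3.47-fold. SLMAP, a membrane protein named for the sarcolemma, had 9.03 and 10.62, the smallest difference of the 88 genes.

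Cell junctions and membrane anchors were represented by 5 genes. CTNNA2, the catenin best known from neurons, had 6.23 and 8.70, or 5.52-fold, the largest of the 5. Cadherins, the adhesion proteins of the intercalated disc, were closer to the threshold: CDH2, or N-cadherin, had 7.62 and 9.22, or 3.04-fold, and DSC2, a cadherin of the desmosome, had 7.03 and 8.75, or 3.29-fold. ANK3, or ankyrin-G, which holds sodium channels at the membrane, had 9.11 and 10.78, or 3.19-fold. ITGB1BP2, or melusin, a partner of integrins in muscle, had 6.99 and 8.91, or 3.77-fold.

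Fuel supply, oxygen storage and mitochondria gave 11 genes with a median log2 difference of 1.86. MB, or myoglobin, the oxygen store of muscle, had 11.35 and 13.09 with its brighter probe set, or 3.32-fold, and 9.81 and 11.96 with the other, or 4.44-fold. FABP3, the fatty acid carrier of heart, had 9.89 and 11.91, or 4.04-fold, and its second probe set was 4.28-fold higher. The respiratory chain was not wholly removed by the symbols either. CYCS, or cytochrome c, the electron carrier between complexes of the chain, had 10.32 and 12.13, or 3.51-fold, and HCCS, the enzyme that attaches heme to it, had 6.68 and 8.55, or 3.66-fold. UCP1, the uncoupling protein of brown fat, had 6.79 and 8.87, or 4.21-fold. It was read by 1 probe set, and all 10 adipocyte markers in the table, described below, were lower.

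Among the enzymes of fuel use, GOT1, the cytosolic transaminase of the malate-aspartate shuttle, had 8.51 and 10.46, or 3.87-fold. ADSS1, the muscle enzyme of the purine nucleotide cycle, had 6.37 and 8.28, or 3.75-fold. PFKM and PGAM2, the muscle forms of phosphofructokinase and phosphoglycerate mutase, were 3.15-fold and 3.33-fold higher, with 9.49 and 11.15 for PFKM and 8.86 and 10.60 for PGAM2. ME3, a mitochondrial malic enzyme, had a log2 difference of 1.64, and PPIF, or cyclophilin D, a regulator of the mitochondrial permeability pore, had 1.86.

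A smaller set of 5 genes handles lipids and phosphoinositides. Besides TECRL it held HSD17B13, a lipid droplet enzyme best known from liver, with 6.24 and 8.62, or 5.23-fold. The other three were PLPP7, a relative of lipid phosphatases, PIP4P2, a phosphoinositide phosphatase, and PLAAT1, a phospholipid-modifying enzyme, with log2 differences of 1.82, 1.72 and 1.64.

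Chaperones and the ubiquitin pathway gave 13 genes, with a median log2 difference of 1.85. DNAJA4, a co-chaperone of HSP70, had 8.19 and 10.43, and its probe sets were 4.73-fold and 4.79-fold higher. UNC45B, the chaperone that folds muscle myosin, had 6.04 and 8.15, or 4.31-fold. CRYAB, the small heat shock protein alpha-B crystallin, which the rule kept because its symbol does not begin with HSPB, had 9.08 and 11.02, or 3.84-fold. KLHL41, an adaptor of a ubiquitin ligase in muscle, had 7.93 and 10.17, or 4.72-fold. The muscle ring finger proteins TRIM54 and TRIM63, which mark sarcomere proteins for removal, were 3.72-fold and 3.05-fold higher, with 6.31 and 8.20 for TRIM54 and 7.21 and 8.82 for TRIM63. ASB11, an adaptor of another ligase, had 6.93 and 8.78.

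USP13, which removes ubiquitin, had 6.65 and 8.62, or 3.92-fold, the largest of the remaining ubiquitin genes. SH3RF2, a ring finger protein, and DCAF6, a ligase adaptor, both had a log2 difference of 1.85. The ubiquitin-conjugating enzymes UBE2A and UBE2D1 had 1.83 and 1.77. COMMD3, a protein of endosomal sorting that also bears on ubiquitin ligases, had 1.60.

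Membrane traffic and small GTPases had the lowest median of all the groups, 1.64 over 7 genes. GRTP1, which carries the domain of Rab-inactivating proteins, stood apart with 7.33 and 9.56, or 4.72-fold. RABGAP1L, with the same kind of domain, had 9.09 and 10.72, or 3.10-fold, with the brightest of 3 chosen probe sets. The adaptor subunits AP2B1 and AP1S2, which load cargo into clathrin-coated vesicles, had log2 differences of 1.81 and 1.64. RAB6A and RAB12, which direct vesicles, had 1.67 and 1.64, and RRAS2, a relative of RAS, had 1.60.

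In the nucleus and in RNA handling, 7 genes were found and APOBEC2 was one of them. HAND2, a transcription factor of the developing heart and of sympathetic neurons, had 7.20 and 9.14, or 3.83-fold. TRMT11, a subunit of a transfer RNA methyltransferase, had 7.41 and 9.57, or 4.48-fold. POLR2M, a protein of RNA polymerase II, had 9.66 and 11.66, or 3.99-fold. RPL3L, the ribosomal protein that takes the place of RPL3 in striated muscle, had 7.25 and 9.07, or 3.54-fold. CDK1, the kinase that drives entry into mitosis, had 6.54 and 8.21, or 3.19-fold, and MLF1, a nuclear and cytoplasmic adaptor, had a log2 difference of 1.63.

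Secreted proteins and hormones gave 8 genes and, at 1.99, the highest median of the groups with the chosen probe sets. PAM, the enzyme that amidates peptide hormones and is abundant in the secretory granules of atrial muscle, was read by 4 chosen probe sets. Their log2 intensities on the lenti-control and the lenti-miR-206 array were 6.38 and 9.01, 9.44 and 11.95, 10.50 and 12.50, and 7.89 and 9.53, differences of 3.10-fold to 6.17-fold. The fifth probe set for PAM, the brightest, lay just outside the threshold at 2.96-fold. GNRH1, the precursor of a releasing hormone of the hypothalamus, had 6.28 and 8.83, or 5.86-fold. TSHB, the beta chain of the pituitary hormone thyrotropin, had 7.12 and 9.30, or 4.54-fold. EPYC, a proteoglycan best known from cartilage, had 6.14 and 8.37, or 4.71-fold. The arrays name these genes through the platform annotation, and the identity of the RNA that the probes caught was not examined.

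The other secreted proteins act in the matrix or as signals. CCN3, a matricellular protein, had 6.49 and 8.46 with its brighter chosen probe set, or 3.92-fold, and 6.15 and 8.58 with the other, or 5.38-fold. DKK3, a relative of inhibitors of WNT signalling, had 10.06 and 11.79, or 3.34-fold. CCBE1, which helps lymphatic vessels to form, and PRSS23, a secreted protease, had log2 differences of 1.71 and 1.63.

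There were 9 genes outside these groups. ART3, a surface protein of the ADP-ribosyltransferase family, had 6.72 and 9.15, or 5.38-fold. LOC100855558, which RefSeq places beside the alpha-globin family gene HBM, had 10.08 and 12.09, or 4.01-fold, and 12.47 and 13.80, or 2.51-fold, with its other probe set. PPP1R14C, an inhibitor of protein phosphatase 1, had 7.08 and 9.04, or 3.91-fold. CRIP2, a LIM protein, and GGCT, an enzyme of glutathione turnover, had log2 differences of 1.91 and 1.83. NDRG2, a stress-response protein, had 1.76, NIBAN1, a regulator of translation under stress, 1.73, HEBP2, a heme-binding protein, 1.64, and TCP11L2 1.77.

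**Figure D3:**
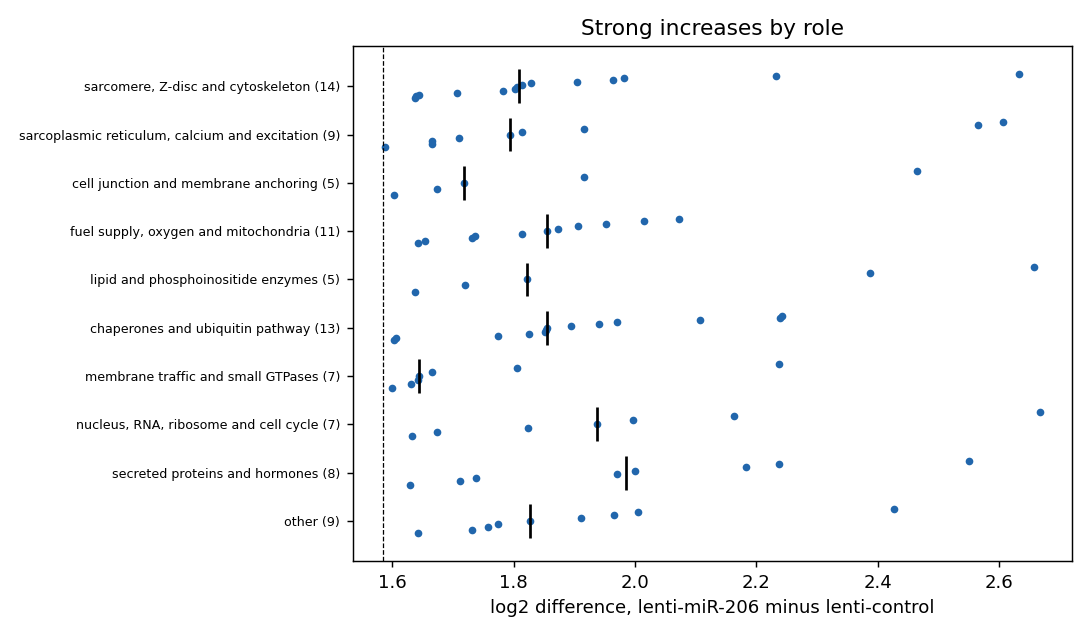
The 88 genes by role (y axis, number of genes in brackets) and by how far the lenti-miR-206 array lay above the lenti-control array (x axis, log2 difference). A point stands for a gene, read by 1 probe set, a black bar for the median of a role and the dashed line for the fold threshold. The groups overlap throughout, with medians from 1.64 for membrane traffic to 1.99 for secreted proteins.

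A gene can be read by several probe sets, and those that the rule passed over show how much the size depends on the choice. Of the 88 genes, 35 had 1 probe set in the table and 53 had more. Beside the chosen ones, 41 genes had 62 further probe sets, and none of the 62 was lower on the lenti-miR-206 array. Of all 1628 probe sets, 1223, or 75.1%, were higher, and a probe set of these genes with under 2-fold difference would not be seen here. The log2 differences of the 62 ran from 1.01 to 3.10 with a median of 1.55. Of these, 25 had reached the lenti-control threshold and had too small a difference, and 37 lay under the lenti-control threshold.

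The fold of 20 genes differed by more than 1.5 times between their probe sets. HRC was 5.92-fold higher with one probe set and 2.37-fold with the other, whose values were 6.70 and 7.95. GRTP1 was 2.12-fold higher with its second probe set, at 7.09 and 8.18, KLHL41 2.40-fold at 3.59 and 4.86, and CCN3 2.35-fold at 6.63 and 7.86. NIBAN1, chosen with 8.50 and 10.23, reached 8.56-fold with a probe set of 5.42 and 8.52, which was passed over for its lenti-control value, and RPL3L reached 6.41-fold in the same way, with 5.80 and 8.48. Of the 6 probe sets for TTN, the brightest had 10.38 and 11.74 and was only 2.57-fold higher. SLMAP ranged from 2.47-fold to 5.20-fold over 5 probe sets, the latter at 4.31 and 6.69. AP1S2 and RABGAP1L were 5.78-fold and 5.73-fold higher with dimmer probe sets of 5.29 and 7.82 and of 5.71 and 8.23. At the other end, the probe sets of TSHB gave 4.54-fold and 4.57-fold, those of CAP2 3.44-fold and 3.39-fold and those of FABP3 4.04-fold and 4.28-fold.

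Further genes had such a spread, besides APOBEC2, PAM, PDLIM5 and LOC100855558 described above. S100A1 was 2.02-fold higher at 7.77 and 8.79 against 3.17-fold with the chosen one, ANK3 2.01-fold at 8.28 and 9.29 against 3.19-fold. DST was 3.55-fold higher at 6.24 and 8.07, and 2.08-fold at 7.05 and 8.10. TRDN ranged from 2.64-fold to 4.36-fold, MLIP from 2.35-fold to 4.16-fold and PLN from 3.52-fold to 5.45-fold. Had each gene been represented by the brightest of all its probe sets, 11 would have fallen short of the fold threshold: TTN, CSRP3, NRAP, DST, S100A1, GOT1, PAM, RPL3L, RAB6A, RAB12 and LOC100855558.

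**Figure D4:**
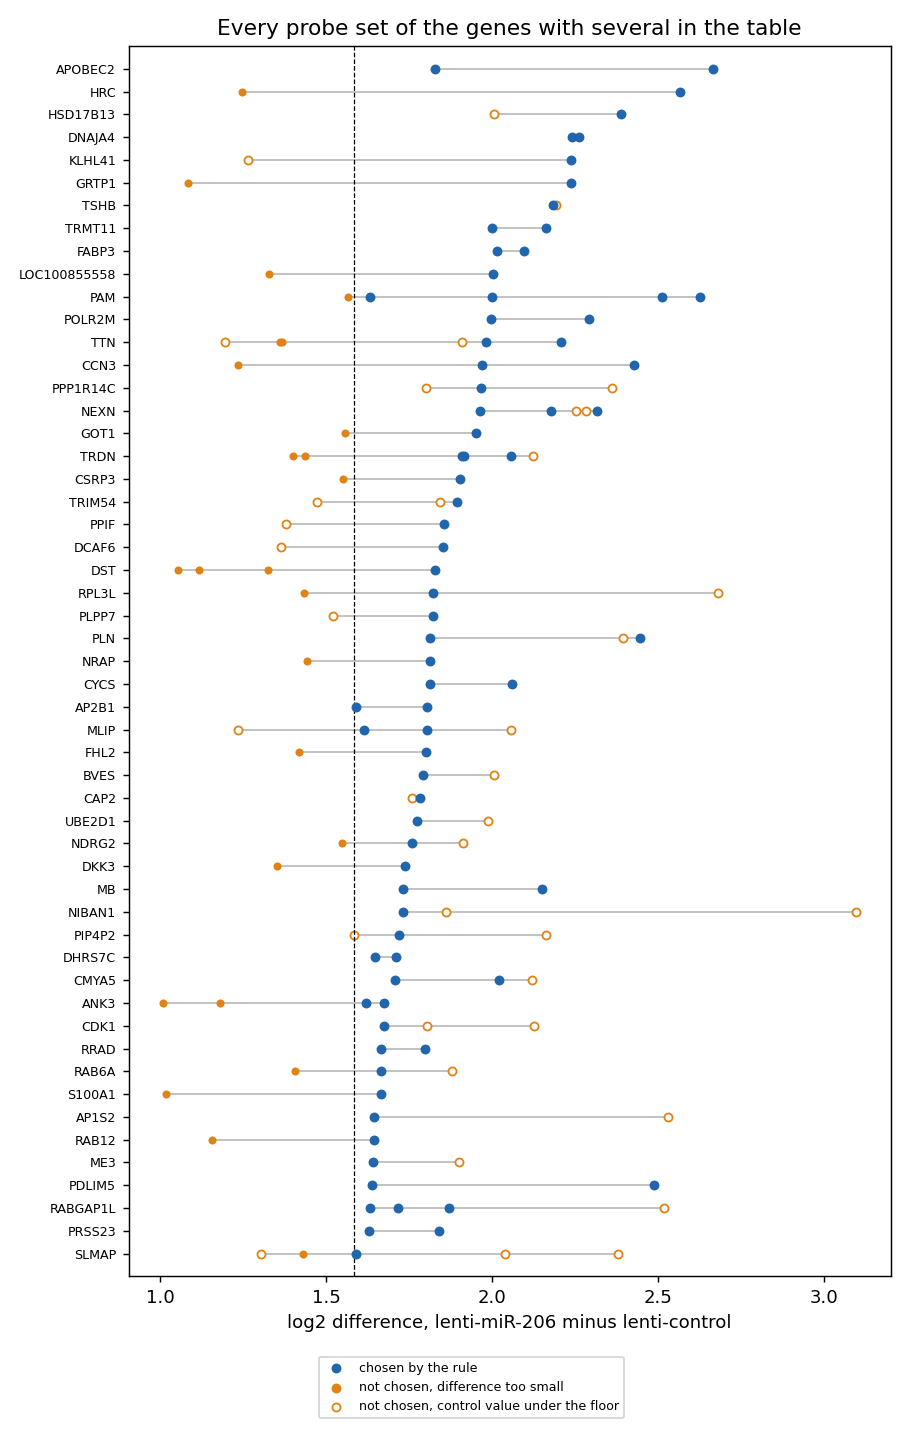
Every probe set of the 53 genes with more than 1 in the table (y axis, ordered by the probe set that stands for the gene) by its log2 difference between the arrays (x axis, positive where lenti-miR-206 was higher). Blue points were chosen by the rule, filled orange points had too small a difference, open orange points had a lenti-control value under 6, whatever their difference, and the dashed line is the fold threshold.

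Gene lists written for the tissue, with earlier results of these data known, place these genes among their pathways. Counts are of genes in the table, with the brightest probe set of each, and a gene can stand in several lists. Counts of higher genes stand beside the share of 75.1% of all probe sets that were higher. Counts among the 88 genes stand beside 88 of the 823 genes in the whole table. Genes outside the 88 are named here after their values were seen. Of 50 genes listed for the sarcomere and cytoskeleton outside the families set aside, 23 were in the table. All 23 were higher, 11 of them among the 88 genes. Their median log2 difference was 1.55, against 1.21 over all probe sets, lower ones included. The 11 genes were chosen for a large difference, so this comparison carries no test. Of the others, SMYD1, a methyltransferase of developing muscle, had 4.89 and 7.82, or 7.63-fold. FHOD3, a formin of the sarcomere, had 5.42 and 7.49, and NEBL, or nebulette, 4.21 and 6.46. All 3 lay under the lenti-control threshold. Of 28 genes for calcium handling, which as listed held SMPX, 6 were in the table and all 6 were higher, 5 of them among the 88 genes. The remaining one was CAMK2D, a calcium-dependent kinase, with 4.44 and 6.15.

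The list of the intercalated disc and costamere had 36 genes, of which 10 were in the table, all 10 of them higher and 4 among the 88 genes. Dystrophin (DMD), which ties the cytoskeleton to the membrane, followed with 7.22 and 8.60. Of 26 heat shock and folding genes, 9 were in the table and all 9 were higher, 3 of them among the 88 genes. Of these, UNC45B and CRYAB were also counted in the sarcomere list. HSPA2, an HSP70 protein, had 4.55 and 7.08, or 5.77-fold, and STIP1, a co-chaperone, 5.93 and 7.70. Of 31 genes for muscle ubiquitin ligases and protein degradation, 7 were in the table and all 7 were higher, 4 of them among the 88 genes. Among the latter, TRIM63 was also counted in the sarcomere list. ASB12, a ligase adaptor outside the 88, had 4.78 and 6.35. Genes of these lists with a log2 difference under 1.31, the GAPDH median, such as DNAJB4 with 1.07, lay lower relative to those controls.

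Among the metabolic lists, that of fatty acid uptake and oxidation went both ways. Of its 35 genes, 12 were in the table, 7 higher and 5 lower. FABP3 was the only one of the 88 genes among them. VLDLR, a lipoprotein receptor, had 5.58 and 7.16, and ETFDH and ETFA, which pass electrons from fatty acid oxidation to the respiratory chain, had 5.69 and 7.05 and 8.60 and 9.81. DECR1, an enzyme of unsaturated fatty acid oxidation, had 7.70 and 8.94. ACSL1, LPL, ACAT1, FABP4 and ACAA1 were the 5 that were lower, with log2 differences from -2.12 for ACSL1 to -1.25 for ACAA1. LPL and FABP4 are also among the adipocyte markers described below.

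The glycolysis and glycogen list had 10 of its 33 genes in the table, 9 of them higher, with PFKM and PGAM2 among the 88 genes. The next were PGM1, or phosphoglucomutase, with 5.60 and 7.24, the muscle enolase ENO3 with 8.64 and 10.19 and PHKB, a subunit of phosphorylase kinase, with 6.18 and 7.65. The exception was PFKFB1, with 7.58 and 5.53. Of 35 genes of oxygen binding, iron and antioxidant defence, 7 were in the table and SOD1 alone was lower, with a log2 difference of -1.11. MB was the only one of the 88 genes in that list. ALAS1, the first enzyme of heme synthesis, had 8.04 and 9.53, MSRB1 and MSRA, which repair oxidized methionine, had 7.51 and 9.05 and 7.51 and 8.69, and SOD2, the mitochondrial superoxide dismutase, had 7.88 and 9.09.

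Of 24 genes for the pyruvate dehydrogenase, citric acid cycle and shuttles, 6 were in the table and all but BDH1 were higher. GOT1 was the only one among the 88 genes, and GOT2, its mitochondrial partner, had 10.09 and 11.36. DLST and FH, enzymes of the cycle, had 4.80 and 6.24 and 8.48 and 9.57, and the kinase PDK3 had 5.60 and 6.64. Of the 20 genes for phosphagens and the purine nucleotide cycle, ADSS1 and PRKAG2, a subunit of the energy sensor AMPK, were in the table, the latter with 6.97 and 8.23. Of 28 genes for ion channels and gap junctions, BVES and the chloride transporter CLCN3 were in it, the latter with 4.31 and 5.46. Of 31 transcription factors of heart and muscle, HAND2, MITF and MEF2C were in it, with 7.85 and 8.95 for MITF and 5.33 and 6.38 for MEF2C.

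The other lists, cell type markers apart, held none of the 88 genes, beside the 88 of 823 genes in the whole table. No test of this was made. Of the list of mitochondrial dynamics, inner membrane and chaperones, 13 of 14 genes in the table were higher, and of receptors and cyclic nucleotide signalling 9 of 11. Regulators of oxidative metabolism had 2 of 3 higher, amino acid breakdown 1 of 2, and natriuretic and growth factors 1 of 4. Of 42 listed targets of miR-206 and miR-1, 4 were in the table, with SOD1, TKT and FN1 lower and RARB higher.

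**Figure D5:**
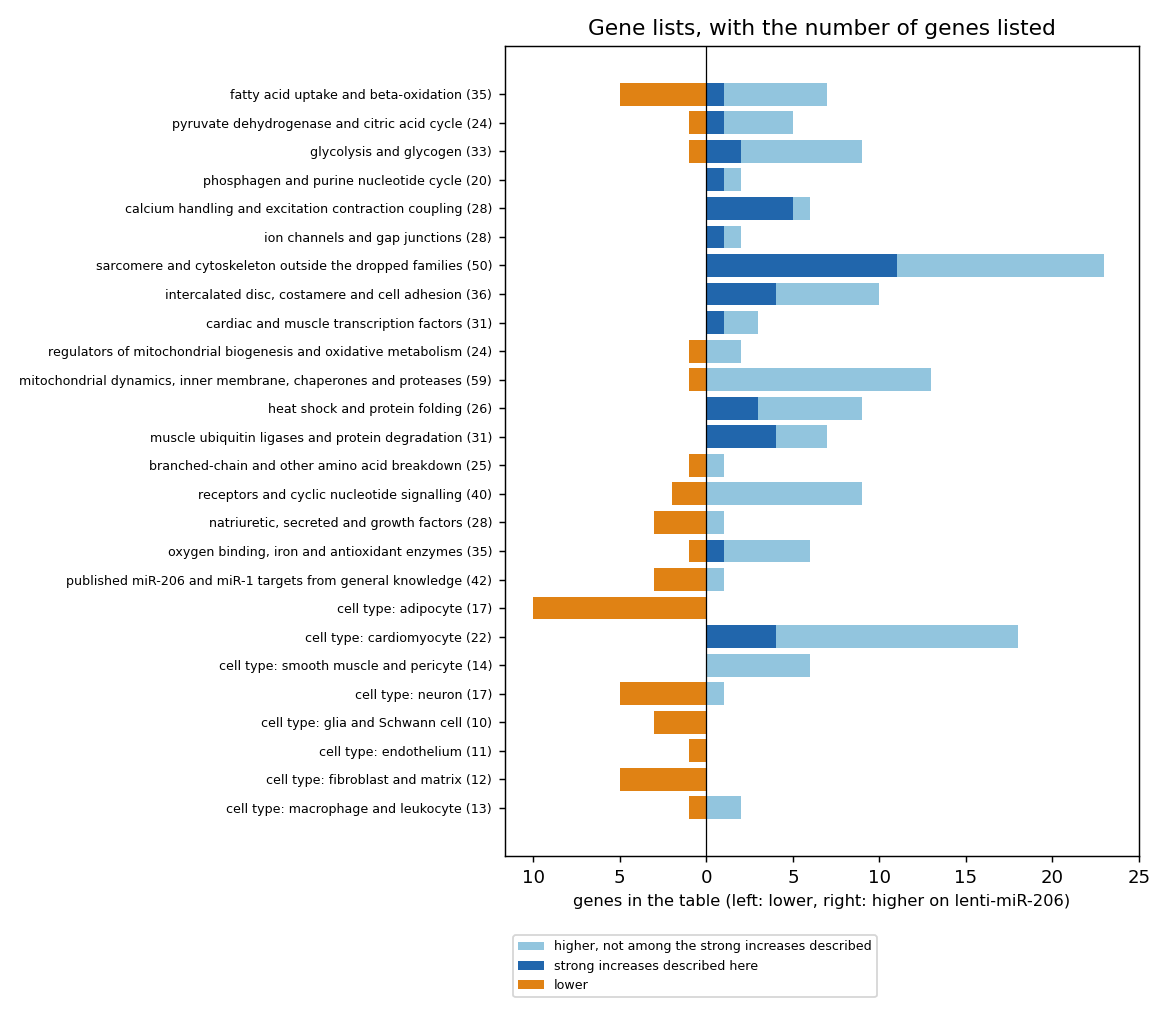
Number of genes of each list (y axis, with the number listed in brackets) that were in the table, to the right of 0 if higher and to the left if lower on the lenti-miR-206 array (x axis). Dark blue are genes among the 88, light blue other higher genes and orange lower genes, and the bar of the sarcomere list holds 23 higher genes while that of the adipocyte markers holds 10 lower genes.

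Markers of the cell types in and under the fat pad differed too, some in the same direction as these genes and others in the opposite one. In a pool of bulk tissue, fewer cells of a type and less RNA per cell cannot be told apart. Of 22 cardiomyocyte markers, 18 were in the table and all 18 were higher, 4 of them among the 88 genes (MB, CSRP3, TTN and PLN). A further 9 passed both thresholds with at least 1 probe set but lie in families set aside. Among these, the brightest probe sets of MYH7 and ACTC1 fell short, with log2 differences of 1.17 and 1.56. The summed intensity of the 18 markers was 51132 on the lenti-control and 143021 on the lenti-miR-206 array. The largest differences were those of NPPB, a natriuretic peptide, with 6.28 and 9.11, the creatine kinase CKMT2 with 8.75 and 11.05, TCAP, which caps titin, with 8.95 and 11.06 and TNNT2, the cardiac troponin T, with 11.58 and 13.50. Of 17 adipocyte markers, 10 were in the table and all 10 were lower, with a summed intensity of 47934 on the lenti-control and 13865 on the lenti-miR-206 array. Defining markers of fat were bright on both arrays, such as ADIPOQ with 13.21 and 11.34 and FABP4 with 14.20 and 12.80, so fat was present in both pools. Of 14 smooth muscle and pericyte markers, all 6 in the table were higher. Of 17 neuronal markers, 6 were in the table and 5 were lower, with 8.27 and 3.84 for CHGB, and MAP1B was the exception. The markers of glia (3 of 10 in the table), fibroblasts and matrix (5 of 12) and endothelium (1 of 11) were lower, those of macrophages and leukocytes were split, with 2 higher and 1 lower, and none of the 7 red cell markers, sought by symbol, was in the table. Globin genes with other names were not among them, and LOC100855558, beside HBM, was higher as given above. LOC476825, which RefSeq places with 3 genes between it and the globin gene HBE1 and which is named after its values were seen, had 4.64 and 7.40. The study's methods say that fat was left out as far as possible from the RNA for its small RNA sequencing, and say nothing of this for the arrays. The part of a different share of heart muscle, fat or blood in the increase of the 88 genes was not tested.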

How the data were processed

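Per the labels, total RNA was extracted with TRIzol, made into biotin-labelled cRNA and hybridized to Affymetrix canine arrays. The authors deposited log2 intensities, for which the submitters' processing notes name RMA, a procedure that corrects background, normalizes between arrays and summarizes each probe set. Neither its version nor which arrays it took in is given in the sources used here. All 2 value columns were mapped to samples. Symbols came from the platform annotation and were updated through Entrez identifiers with RefSeq (UU_Cfam_GSD_1.0), which matched 1102 probe sets and 102 of the 115 chosen, changing no symbol of the latter. Coordinates are left out, since the arrays come with no named build.

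Log2 differences (lenti-miR-206 minus lenti-control) were computed in Python 3.11.15 (pandas 2.3.3, numpy 2.4.6), and figures were drawn in matplotlib 3.10.9. The 2 thresholds of the rule were checked on simulated data, which did not check the setting aside of families. The members, lists and roles were chosen with earlier results of these data known. All 88 genes are named, each by its chosen probe set of highest mean, with both values for the 30 largest differences, for up to 5 genes of each list, for genes whose probe sets differ by over 1.5 times and for 4 probe sets beside each threshold. Genes outside the 88 were named after their values were seen. Of the 115 probe sets, 56 have the suffix s_at or x_at and may catch related transcripts. No detection calls were used. There is 1 array per group, so no test was made, and array number limits the precision. Promoter motifs and sequences were not analysed here.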

Additional observations from a re-analysis of the deposited data

How the results depend on the processing

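The number of genes, 88, and their median log2 difference, 1.82, follow from the thresholds. The number was 55 without s_at and x_at probe sets, 53 with a lenti-control threshold of 7, 163 with no such threshold, 309 at 2-fold and 31 at 4-fold, where a gene counts with any probe set past the new threshold and not only with the one that stands for it. Relative to the GAPDH controls no gene (0) reached 3-fold and the median was 0.52. Relative to the spike-in controls the number was 309, which the 2-fold limit of the table sets, and the median 2.90. Both references rest only on control probe sets past that limit. Averaging a gene over all its probe sets gave 75 genes, the brightest of all its probe sets, added after seeing the data, 77, symbols of the platform annotation 88 and no family set aside 124, all within 1.5 times. No paired analysis was possible because each group has 1 array, and leaving out a replicate was not possible for the same reason. Without detection calls, it is unknown which lenti-control values near 6 lie above background.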

Other observations

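Of the 88 genes, some lie next to another, or next to a further gene in the table, on the chromosome in RefSeq. Most neighbours were not in the table. The value given for a neighbour is the largest over its probe sets. CDK1 lies beside ANK3 and beside RHOBTB1, which was in the table with a log2 difference of 1.09, and ME3 lies beside PRSS23. CRYAB lies beside HSPB2, a small heat shock gene set aside by the rule with 1.91, and RPL3L beside MSRB1, whose largest difference was 2.47. PDLIM5 lies beside HPGDS, which had 3.31. TECRL, DNAJA4, RAB6A and UBE2D1 lie beside ADGRL3, ACSBG1, MRPL48 and CISD1, which had 1.06, 1.05, 1.60 and 1.16. TSHB lies beside TSPAN2, a tetraspanin with 1.24, whereas neither neighbour of GNRH1, EPYC, UCP1 or HSD17B13 was in the table. Whether probes of one gene catch RNA of its neighbour was not tested. These genes were named after their values were seen.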
